A study of Mus musculus with 6 samples.

Results

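A group of 9 genes for secreted factors and a receptor of blood vessel growth was followed in cultured muscle-derived stem/progenitor cells (MDSPCs), namely Vegfa, Vegfb, Vegfc, Pgf, Angpt1, Angpt2, Angptl4, Hgf and Met. They were chosen by name, all 9 of 9 were found among the 21485 genes that every count matrix shares, and all 9 passed the filter on low counts, which left 14512 genes. MDSPCs are the slowly adhering cells left after repeated replating of digested mouse skeletal muscle. The samples were 3 populations isolated from young and 3 from old mouse muscle, each grown in proliferation medium with fetal bovine and horse serum and each 1 replicate. All 6 were collected from culture flasks without another treatment, and each was profiled by droplet-based 3′ single-cell RNA sequencing. The labels give no age in months, strain, sex or allele, and do not say whether a population came from 1 animal or was pooled. They call the 6 samples biological replicates. The titles also carry population codes, which are Y1-1, PtC5 and FT-QU for young replicates 1 to 3 and O1-1, NA-f2 and NA-f3 for old replicates 1 to 3. Their meaning is not given in the sources used here, and a difference between populations other than age class cannot be told apart from age.

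The VEGF family members Vegfa, Vegfb, Vegfc and Pgf encode secreted ligands of endothelial receptor tyrosine kinases, with the neuropilins as coreceptors. The angiopoietins Angpt1 and Angpt2 bind the receptor TIE2, the product of Tek, and Angptl4 encodes a related secreted protein that inhibits lipoprotein lipase. Hgf encodes hepatocyte growth factor, the ligand of the receptor tyrosine kinase MET, a pair known for activating quiescent satellite cells in muscle. Transplanted MDSPCs have been studied for the factors they secrete as well as for the fibres they form.

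Between 8674 and 12541 cells per sample were kept, 61673 of 62849 barcodes in all, with a median of 13001 to 19951 UMIs (unique molecular identifiers, 1 per captured RNA molecule) per cell. Any 2 libraries shared at most 0.369% of their cell barcodes. Myogenic markers were detected in every sample, with a summed level of 198 to 2292 CPM (UMIs of a gene scaled to a fixed total per sample) in the young and 254 to 3887 CPM in the old samples. The stem cell marker Pax7 was at 0.0245 CPM in young replicate 3, and Myf5 was at 0.00883 CPM in young replicate 1, so these defining markers were close to absent there. The endothelial marker list, summed, was at 1.76 to 8.84 CPM outside young replicate 2, and immune markers summed to at most 9.15 CPM. Fibro-adipogenic markers summed to 203 to 455 CPM. Their sum was above the myogenic sum in young replicate 3 (279 against 198 CPM) and below it in the other samples. Of that list Gsn alone was at 135 to 303 CPM, while Pdgfra was at or below 1.88 CPM. Levels below are CPM scaled by TMM (trimmed mean of M-values, a scaling for library makeup). In a summed sample, fewer cells holding a transcript and less transcript per cell cannot be told apart. These are UMI counts of the 3′ end, which need no division by gene length.

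To show the regulatory sequence next to which the VEGF genes and Hgf start, the 250 bases before the RefSeq start site are given, 5′ to 3′ on the gene's strand, from RefSeq on GRCm38.p6. They are shown for 3 ligands of 1 family and for the ligand of MET, the 4 for which the window lies outside the gene model. Capitals mark GGGCGG or its reverse complement, the binding letters of the SP factors. A pair of other motifs, which do not overlap GGGCGG, was searched on both strands. They were CAGCTG (an E-box of the kind bound by MYOD1 and myogenin) and ACGTG (1 form of the core of the hypoxia response element). The form GCGTG was not searched.
Vegfa chr17:46032378-46032627 (minus strand): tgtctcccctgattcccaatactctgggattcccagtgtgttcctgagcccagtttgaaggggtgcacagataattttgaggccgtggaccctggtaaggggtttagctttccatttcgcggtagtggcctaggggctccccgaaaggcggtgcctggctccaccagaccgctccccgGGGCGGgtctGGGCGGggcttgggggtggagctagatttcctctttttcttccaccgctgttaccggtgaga
Vegfb chr19:6987652-6987901 (minus strand): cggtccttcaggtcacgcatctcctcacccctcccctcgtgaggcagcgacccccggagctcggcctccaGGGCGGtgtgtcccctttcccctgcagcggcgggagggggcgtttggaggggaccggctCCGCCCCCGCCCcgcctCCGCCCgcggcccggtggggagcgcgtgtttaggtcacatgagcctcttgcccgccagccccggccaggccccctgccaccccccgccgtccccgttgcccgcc
Vegfc chr8:54077282-54077531 (plus strand): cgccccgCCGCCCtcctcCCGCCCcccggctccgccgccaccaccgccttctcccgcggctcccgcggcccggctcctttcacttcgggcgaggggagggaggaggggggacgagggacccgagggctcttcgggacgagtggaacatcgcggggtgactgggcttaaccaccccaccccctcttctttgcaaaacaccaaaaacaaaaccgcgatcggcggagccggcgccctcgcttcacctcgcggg
Hgf chr5:16553245-16553494 (plus strand): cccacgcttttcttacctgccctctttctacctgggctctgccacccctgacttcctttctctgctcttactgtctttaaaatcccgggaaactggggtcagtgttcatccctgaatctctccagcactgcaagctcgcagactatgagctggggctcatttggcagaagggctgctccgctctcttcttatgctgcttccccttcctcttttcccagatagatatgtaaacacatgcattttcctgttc
GGGCGG was found 2 times for Vegfa, 4 times for Vegfb, 2 times for Vegfc and 0 times for Hgf, and neither CAGCTG nor ACGTG was in these 4 windows. The same window of 250 bases before the start was searched in 27025 RefSeq promoters, of which 32.9% held GGGCGG, 16.6% ACGTG and 12.8% CAGCTG. A missing motif says only that these letters are not in the window.

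The first question was whether the levels of these genes differed between young and old populations. No member did beyond the spread between populations: 0 of 9 passed the test over all 14512 genes (edgeR quasi-likelihood, Benjamini-Hochberg adjusted p under 0.05), 0 of 9 had an unadjusted p under 0.05, and DESeq2 also called 0. In the edgeR test 1 gene in all passed, 0.00689% of those tested, while 512 had an unadjusted p under 0.05. DESeq2 called 180 genes higher and 39 lower over all genes. For each of the 9 genes the young and old values overlapped. By comparison, all 3 old samples lay above all 3 young for 3.63% of the genes tested and below for 2.42%. The median log2 fold change (old over young) was -0.22 over the 9 members and -0.01 over all genes.

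Vegfa (chr17, minus strand, on GRCm38 at 46016993-46032369), the main driver of endothelial sprouting, was at 29.2, 46.2 and 19.1 CPM in young replicates 1 to 3 and at 50.6, 42.8 and 29.6 CPM in old replicates 1 to 3. The lowest value was young and the highest old, with the rest interleaved. The log2 fold change was 0.36 (SE 0.40, unadjusted p = 0.398, edgeR). Vegfb, a ligand of VEGFR1, had the highest level of the 4 VEGF ligands in every sample but young replicate 1. It read 117, 57.3 and 74.0 CPM in young replicates 1 to 3, against 57.2, 63.2 and 42.3 CPM in the old ones. Young replicate 1 stood above the others, and the log2 fold change was -0.55 (SE 0.28, unadjusted p = 0.102, edgeR).

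Vegfc, the lymphatic growth factor, was at 54.6, 5.99 and 30.7 CPM in young replicates 1 to 3, against 44.3, 17.7 and 41.0 CPM in the old ones. Young replicate 2 was the lowest, and the log2 fold change was 0.35 (SE 0.68, unadjusted p = 0.624, edgeR). Pgf, placental growth factor, read 123, 0.784 and 26.6 CPM in young replicates 1 to 3, against 28.1, 3.62 and 9.75 CPM in the old ones. This 156-fold range between young replicates 1 and 2 was the widest of the 9 genes. The log2 fold change of -1.40 had an SE of 1.17 (unadjusted p = 0.28, edgeR). Without young replicate 3 the estimate was 0.62.

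Angpt1, the activating ligand of TIE2, was at 4.02, 7.25 and 42.9 CPM in young replicates 1 to 3, against 5.01, 23.3 and 12.6 CPM in the old ones. Young replicate 3 was the highest and young replicate 1 the lowest, and the log2 fold change was -0.22 (SE 0.68, edgeR). Angpt2, the context-dependent antagonist, was low throughout, at 3.67, 6.76 and 4.72 CPM in young replicates 1 to 3, against 5.82, 6.22 and 1.99 CPM in the old ones. Its log2 fold change was -0.11 (SE 0.57, edgeR). Angptl4 varied least between samples, at 27.7, 18.2 and 12.6 CPM in young replicates 1 to 3, against 27.8, 29.3 and 21.8 CPM in the old ones. Young replicate 1 lay within the old values, and the log2 fold change was 0.49 (SE 0.29, unadjusted p = 0.141, edgeR).

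Hgf was the scarcest of the 9, at 0.927, 2.65 and 0.186 CPM in young replicates 1 to 3, against 1.46, 0.960 and 0.829 CPM in the old ones. The lowest sample rests on 38 UMIs and the highest on 510. Its log2 fold change was -0.23 (SE 1.02, edgeR) and became 1.53 without young replicate 2. Met, the receptor, was far more abundant, at 32.8, 168 and 84.6 CPM in young replicates 1 to 3, against 41.2, 66.4 and 72.2 CPM in the old ones. The young samples held both the lowest and the highest level, and the log2 fold change was -0.47 (SE 0.39, unadjusted p = 0.272, edgeR). For each sample, log2 levels were taken minus the mean of the other samples and centred on that sample's median over expressed genes. In young replicate 3 the 213 expressed genes of chromosome 6, where Met lies, had a median shift of 0.49 log2 units. In old replicate 2 the 270 genes of chromosome 5, where Hgf lies, had a median shift of 0.32. Shifts on the members' other chromosomes were at most 0.16 in size, and their part in the levels was not tested.

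**Figure D1:**
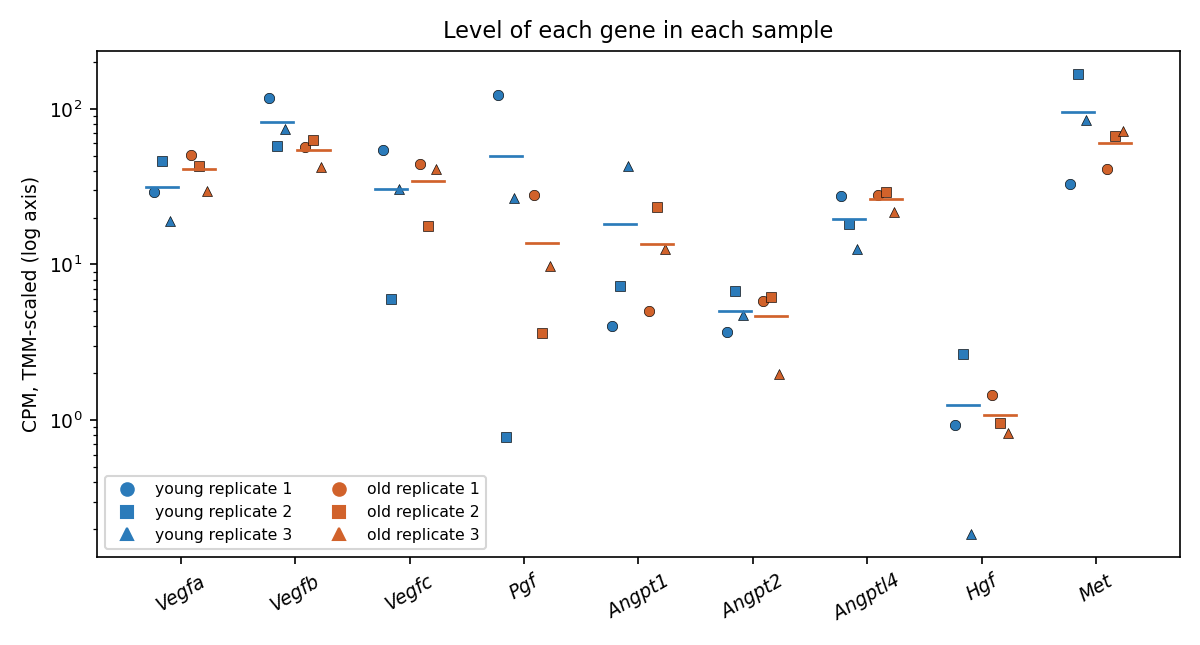
Level of each of the 9 genes in each sample, in TMM-scaled CPM on a log axis. Points are single samples, marker shape gives the replicate number and horizontal bars give the group mean of 3 samples. Young and old points overlap for every gene, and the widest spread is that of Pgf, from 0.784 to 123 CPM within the young group.

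**Figure D2:**
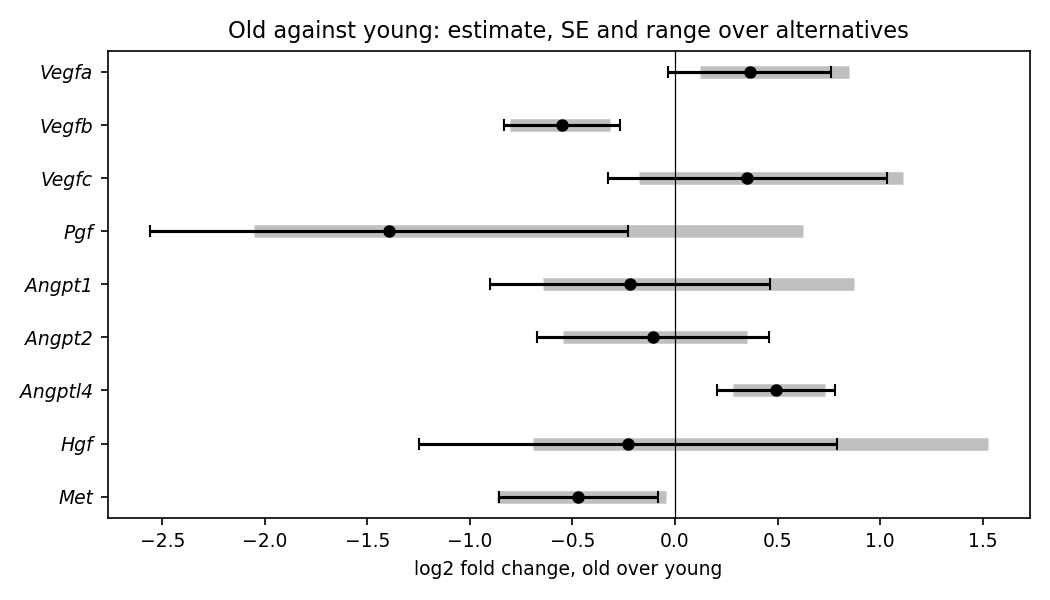
Log2 fold change of each gene, old over young. Points and whiskers give the edgeR estimate and its SE, and grey bars the range of the estimate over 16 alternative settings. The settings without young replicate 1, without old replicate 1 and on the longer gene list alone rest in effect on the same 4 samples. The bars of Vegfa, Vegfb, Angptl4 and Met stay on 1 side of 0, and those of the other 5 genes cross it.

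Over the 16 alternative settings the sign was the same in all 16 for Vegfa, Vegfb, Angptl4 and Met, and in 13 to 15 for the other 5 genes. The lowest adjusted p of any member in any of them was 0.741, for Angptl4 without young replicate 1 (edgeR). Among the 4 genes of steady sign, leaving out single samples moved the log2 fold change of Met from -0.87 (without young replicate 1) to -0.04 (without young replicate 2), and that of Vegfa from 0.12 (without young replicate 3) to 0.85 (without young replicate 2). It ranged from -0.80 (without old replicate 2) to -0.32 (without old replicate 1) for Vegfb, and from 0.28 (without young replicate 3) to 0.73 (without old replicate 1) for Angptl4. Only young replicate 1 and old replicate 1 were counted on a shorter gene list, for which the fit holds a term. Without either of them, that term takes up the other. Those fits and the fit on the longer list alone thus rest in effect on the same 4 samples. The chart of old against young estimates shows both the SE and this range.

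The share of cells with at least 1 UMI of a gene was compared after each cell was thinned to 5000 UMIs, which removes differences of depth. Vegfa was detected in 11.5%, 18.4% and 9.77% of young cells and in 22.2%, 18.4% and 12.4% of old cells (replicates 1 to 3, 8444 to 12168 cells per sample). Vegfb was detected in 38.5%, 23.9% and 33.0% of young and 26.5%, 28.3% and 17.7% of old cells. Pgf was found in 34.4%, 0.376% and 13.1% of young and 13.3%, 1.82% and 4.58% of old cells, so that few cells of young replicate 2 held a UMI of it. Met was found in 13.0%, 52.9% and 34.9% of young and 19.4%, 28.3% and 28.7% of old cells.

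Vegfc was detected in 2.76% to 20.02% of cells, Angpt1 in 1.84% to 18.7%, Angptl4 in 6.50% to 13.7%, Angpt2 in 0.937% to 3.49% and Hgf in 0.122% to 1.14%. No share differed between young and old in a two-sided exact permutation test, where 3 against 3 cannot go below p = 0.1. The smallest p was 0.2, for Vegfa, with a mean of 13.2% ± 4.60 (SD, n = 3) in the young and 17.7% ± 4.93 (SD, n = 3) in the old samples, and for Angptl4, with 8.35% ± 1.76 and 11.9% ± 2.49 (SD, n = 3 each). These 2 exact p-values come from a family of 9 tests. Without thinning the shares were 27.4% to 52.3% for Vegfa, 32.4% to 84.7% for Met and 0.33% to 3.78% for Hgf. The cultures held no cell type known to lack these genes, so the background from free RNA was not measured, and shares as low as those of Hgf could lie within it.

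By the correlation of log2 CPM over the 6 samples, among genes with a mean log2 CPM above 5, the genes with the pattern most like that of each member were as follows. Vegfc ran with Nqo1 (Pearson's r = 0.98), an oxidative stress enzyme, which was at 9.58 CPM in young replicate 2 and 120 CPM in old replicate 1. Met ran with Baz2b, Smarcb1 and Prrx2 (r = 0.98 each), of which Prrx2 is a mesenchymal homeobox gene that read 287 CPM in young replicate 2 and 76.6 CPM in young replicate 1. Angptl4 ran with Ankrd1 (r = 0.96), a stretch-responsive gene at 120 CPM in young replicate 3 and 650 CPM in old replicate 2. Pgf ran with Trappc5 (r = 0.98), Angpt1 with Mid1 (r = 0.98), Vegfb with Cdc37l1 (r = 0.99), Vegfa with Lias (r = 0.94), Angpt2 with Prkca (r = 0.92) and Hgf with Gsta4 (r = 0.97). These values describe 6 points each and were the highest among all genes compared, so no p is given.

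Receptors were mostly those outside the endothelial kinases. The neuropilin Nrp2, a coreceptor for VEGF-C, was at 173, 33.5 and 91.3 CPM in young replicates 1 to 3, against 117, 40.1 and 21.0 CPM in the old ones. Nrp1, the coreceptor for VEGF-A, was at 19.1 to 41.4 CPM. The kinase receptors were near the limit of detection: Kdr, encoding the main VEGF-A receptor, was at or below 0.155 CPM in every sample. Flt1, encoding VEGFR1, reached 6.13 CPM in old replicate 1 and was at or below 1.51 CPM in the others. Flt4, encoding VEGFR3, was at 0.0363 to 0.0618 CPM in the young and 0.157 to 0.846 CPM in the old samples, without overlap (log2 fold change 3.32, SE 0.86, edgeR adjusted p = 1.00), on 7 to 157 UMIs per sample.

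Tek was at 59.1 CPM in young replicate 2 and at 0.0795 to 0.360 CPM in the other 5 samples. It was detected in 16.6% of the cells of young replicate 2 at 5000 UMIs, against at most 0.212% elsewhere. In that sample most other endothelial markers were close to 0, with Pecam1 at 0.337 CPM, Cdh5 at 0.114 CPM, Cldn5 at 0.0415 CPM and no UMI of Tie1. Egfl7, also an endothelial marker, was at 3.42 CPM there and at 0.965 to 7.58 CPM in the other samples. Of the 7 receptor genes 6 were tested and 0 were called, with a median log2 fold change of 0.22. Without young replicate 2 the Tek estimate moved from -5.02 to 1.47.

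**Figure D3:**
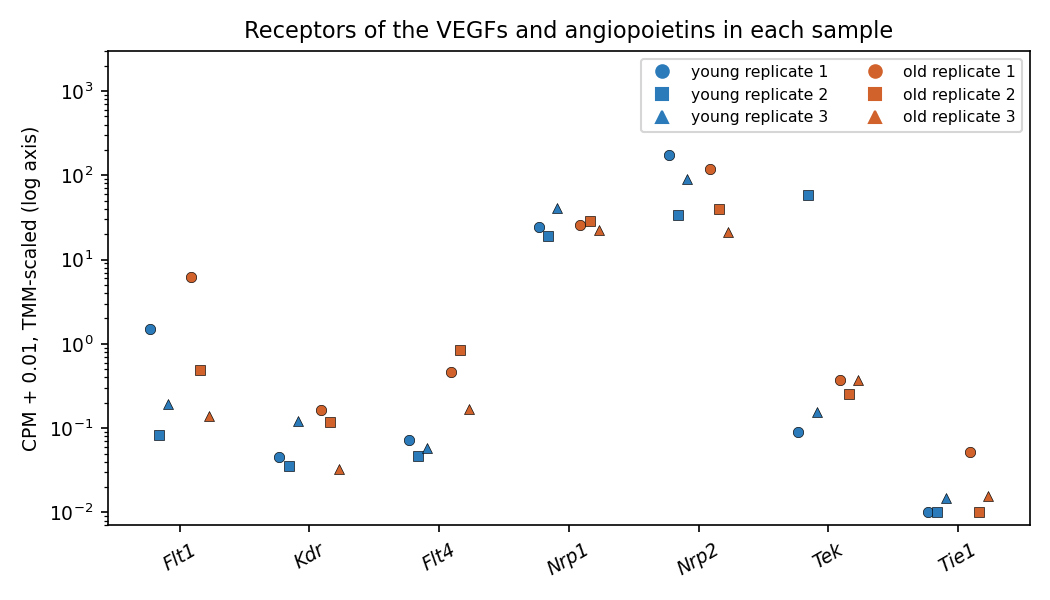
Levels of the genes encoding the receptors of the VEGFs and angiopoietins, as TMM-scaled CPM plus 0.01 on a log axis, with 1 point per sample. Nrp1 and Nrp2 lie at or above 19.1 CPM in all 6 samples, the kinase receptors lie at or below 6.13 CPM, and Tek at 59.1 CPM in young replicate 2 is the exception.

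Among 14 other secreted angiogenic and anti-angiogenic factors 0 were called between young and old, with a median log2 fold change of 0.05. The abundant members were Thbs1, encoding the angiogenesis inhibitor thrombospondin-1 (20.8 to 288 CPM), Pdgfa, a platelet-derived growth factor chain (64.5 to 131 CPM), Serpinf1, the anti-angiogenic PEDF gene (6.50 to 242 CPM), and Cxcl12, a chemokine (29.1 to 288 CPM). Sema3a, a guidance ligand of the neuropilins and named here after its values were seen, was at 85.4, 76.1 and 85.9 CPM in young replicates 1 to 3, against 34.8, 20.2 and 25.5 CPM in the old ones. Its groups did not overlap, with a log2 fold change of -1.65 (SE 0.23), but it did not pass over all genes (edgeR adjusted p = 0.376, unadjusted p = 0.000486). DESeq2 gave Sema3a an adjusted p under the threshold. Cxcl12 was likewise lower in all 3 old samples, with a log2 fold change of -2.03 (SE 0.74, edgeR adjusted p = 1.00).

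Of 12 tested genes that activate HGF or transmit the MET signal 0 were called. The abundant ones were the MET coreceptor Cd44 (107 to 416 CPM), the adaptor Grb2 (68.5 to 199 CPM), Sdc1 (20.4 to 38.0 CPM) and the ubiquitin ligase Cbl (15.99 to 27.1 CPM). None of the 7 HIF pathway genes, 20 hypoxia targets, 9 tested PPAR genes or 11 ATF4 targets was called. Hif1a, encoding the oxygen-sensitive subunit that induces Vegfa, was at 85.5, 80.8 and 91.4 CPM in young replicates 1 to 3, against 67.0, 73.2 and 66.5 CPM in the old ones, with a log2 fold change of -0.32 (SE 0.18, edgeR adjusted p = 1.00).

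The second question was how these genes go with muscle differentiation inside a culture. Myog encodes myogenin, which is switched on as myoblasts leave the cycle to fuse. Cells were split within each sample by 1 or more Myog UMIs against none at 5000 UMIs, and the summed counts of the 2 classes were compared with the sample as a block. Cells with Myog made up 3.46%, 20.3% and 4.97% of the young and 0.697%, 14.3% and 45.8% of the old cells. These were 69 cells in old replicate 1 and 292 in young replicate 1. The values of Angpt1, Angpt2 and Hgf in these cells thus rest on few UMIs in those samples. In these cells 8 of the 9 members were lower and 0 were higher, against a background of 20.9% of 13540 genes lower and 15% higher (edgeR adjusted p under 0.05). The median log2 fold change was -0.57 over the members and -0.07 over all genes.

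Pgf fell most, by 0.95 on the log2 scale (SE 0.20, edgeR adjusted p = 0.00783). Its mean level was 15.4 CPM in cells with and 33.1 CPM in cells without Myog, and it was lower in 6 of 6 samples. Vegfc fell by 0.68 (SE 0.14), Angptl4 by 0.55 (SE 0.12), Vegfa by 0.37 (SE 0.09) and Met by 0.37 (SE 0.08), each in 6 of 6 samples. Vegfa, for example, was at 21.1, 30.7 and 17.8 CPM in the Myog-positive cells of the young samples, and at 29.4, 49.8 and 19.0 CPM in the cells without Myog. In the old samples the Vegfa levels were 37.1, 38.0 and 25.9 CPM with Myog and 51.5, 43.1 and 33.0 CPM without. Met was at 25.9, 128 and 82.9 CPM with and 32.8, 177 and 84.0 CPM without Myog in the young samples, so that young replicate 3 showed the least difference.

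Angpt1 fell by 0.78 (SE 0.23, edgeR adjusted p = 0.0343) and Angpt2 by 0.57 (SE 0.18, edgeR adjusted p = 0.0342), each in 5 of 6 samples. Vegfb fell by 0.21 (SE 0.07, edgeR adjusted p = 0.043) in 6 of 6 samples. The Angpt1 call was lost without young replicate 2 or any old replicate (edgeR adjusted p = 0.0563 to 0.108), and that of Angpt2 without any sample but young replicate 3 (0.0572 to 0.108). The Vegfb call was lost without any 1 of the 6 samples (edgeR adjusted p = 0.0539 to 0.109). With counts thinned to 5000 UMIs per cell the calls of Vegfb (edgeR adjusted p = 0.189) and Angpt1 (0.0763) were lost. Hgf was not called, at 1.15 CPM with and 1.28 CPM without Myog (log2 fold change -0.63, SE 0.49, edgeR adjusted p = 0.353). With thinned counts the Hgf value was -1.18 (edgeR adjusted p = 0.0703). Of the 9 member effects, 0 differed between old and young samples in an interaction test with edgeR, in which 0 of 13540 genes passed, or 0%. Angpt1 alone had an unadjusted p under 0.05 there (difference -1.08, SE 0.26, edgeR adjusted p = 1.00).

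**Figure D4:**
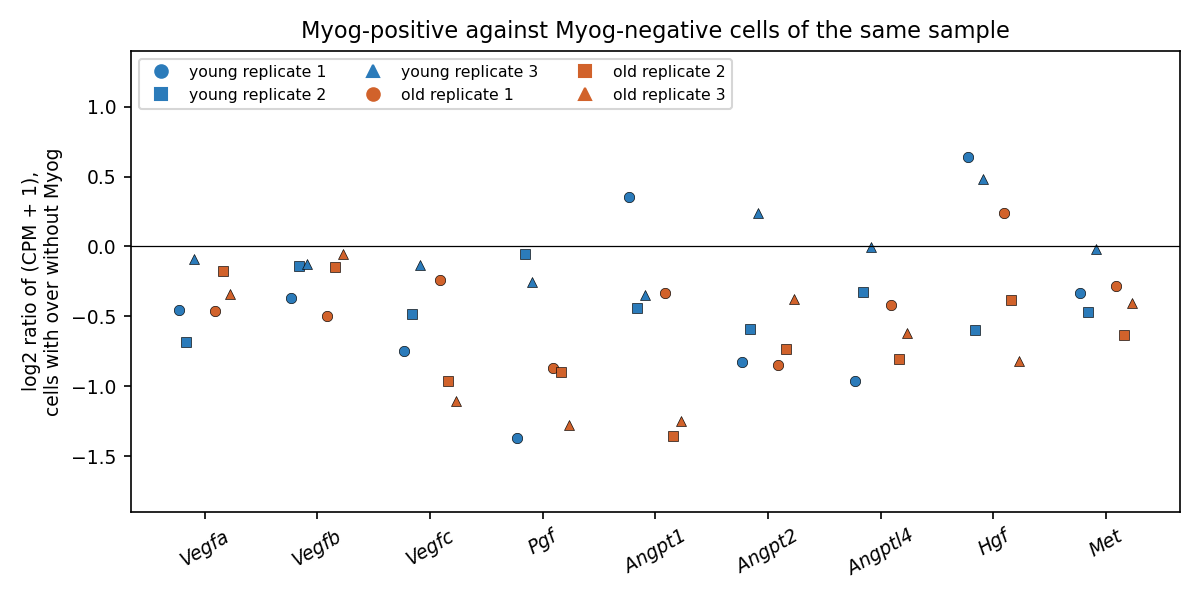
Log2 ratio of CPM plus 1 in Myog-positive over Myog-negative cells of the same sample, 1 point per sample for each of the 9 genes. Old replicate 1 had 69 Myog-positive cells and young replicate 1 had 292. All 6 points of Vegfa, Vegfb, Vegfc, Pgf, Angptl4 and Met lie below 0, 5 of 6 for Angpt1 and Angpt2, and 3 of 6 for Hgf.

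Genes of related pathways were read against the same background of 20.9% lower and 15% higher. The neuropilins Nrp1 and Nrp2 fell by 0.97 (SE 0.15) and 0.76 (SE 0.17), 2 of 4 tested receptors. Of 13 tested other secreted factors, 3 were lower: Fgf2, fibroblast growth factor 2 (-1.25), Cxcl12 (-1.21) and the chemokine gene Ccl2 (-1.24). Another 2 of the 13 were higher, Sema3c (0.32) and Vash2, a tubulin carboxypeptidase gene of the vasohibin family (1.18, SE 0.08). Among 9 tested HGF and MET partners Cd44 (-0.63), Sdc1 (-0.44) and Cbl (-0.32) were lower and Grb2 (0.44) was higher. The call of Ccl2 was lost without young replicate 2 or any old replicate (edgeR adjusted p = 0.0569 to 0.0979), that of Sema3c without young replicate 1 or 2 or old replicate 2 (0.0608 to 0.117) or without the filter on low counts, that of Sdc1 without young replicate 2 or old replicate 2 or 3 (0.0501 to 0.0640) and that of Cbl without old replicate 3 (0.0647) and with thinned counts (0.114). With thinned counts the Sema3c value was 0.56. Of 20 hypoxia targets 5 were higher and 3 lower. Higher were the mitophagy receptor gene Bnip3 (0.55), the glycolytic Aldoa (0.56), Ankrd37, Kdm3a and P4ha1, and lower were Ak4, the glycolytic Eno1 and Mxi1. With thinned counts the values of Ankrd37, Ak4 and Eno1 were 0.89, -0.86 and -0.31. The calls of Kdm3a (edgeR adjusted p = 0.0588) and Mxi1 (0.0772) were lost under that setting. In percent, 23.1% of the other secreted factors were lower and 15.4% higher, and 15% of the hypoxia targets were lower and 25% higher, shares near the background. Of 11 targets of the stress-response transcription factor ATF4, 6 were lower (54.5%) and 0 higher, with a median log2 fold change of -0.44. Among them were the mTORC1 inhibitor Ddit4 (-0.83, SE 0.18), the cystine transporter Slc7a11 (-0.81, SE 0.16) and the stress-induced Sesn2 (-0.63, SE 0.11).

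Muscle genes moved as markers of the class, led by cardiac actin Actc1 (8.26) and embryonic myosin Myh3 (7.72). Of 6 tested fibro-adipogenic markers, Smoc2 (-0.87) and Pdgfra (-1.46) were lower in the cells with Myog, and 0 were higher. The Pdgfra call was lost without old replicate 2 or 3 (edgeR adjusted p = 0.0759 to 0.148). With thinned counts the Pdgfra value was -2.35. Of 6 pericyte and smooth muscle markers Abcc9 was higher (4.28, SE 0.54) and Pdgfrb lower (-1.28, SE 0.31). Of 3 immune markers Cd79a was higher (1.69, SE 0.32) and Csf1r lower (-1.71, SE 0.37), and of 4 Schwann markers Ngfr was lower (-0.996, SE 0.34). Abcc9 had 454 UMIs in old replicate 3 and 4 to 78 in each other sample. Csf1r had 607 UMIs in young replicate 2 and 8 to 47 in each other sample, and Cd79a had 9 to 53 per sample. None of 4 endothelial markers was called. The Pdgfrb call was lost without old replicate 3 (edgeR adjusted p = 0.0601), and that of Ngfr under DESeq2 and without young replicate 1 or old replicate 1 (0.0590 to 0.0595). The summed fibro-adipogenic markers were at 203 to 455 CPM over the 6 samples. The part of these markers in the members' difference was not tested.

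Cells in S or G2/M by expression score, 33.7% to 85.2% of a sample, were next compared with G1 cells. Among 13331 genes 23.3% were higher and 29.7% lower, so 3 lower members of 9 is a share near the background. Angpt2 fell by 0.56 (SE 0.08, edgeR adjusted p = 0.000282), at a mean of 4.20 CPM in cycling and 6.34 CPM in G1 cells, in 6 of 6 samples. Pgf fell by 0.32 (SE 0.08, edgeR adjusted p = 0.0106), and its call was lost without young replicate 1 (edgeR adjusted p = 0.0536). Hgf fell by 0.66 (SE 0.24, edgeR adjusted p = 0.0417), and that call was lost without any sample but old replicate 2 (0.0714 to 0.130). With thinned counts the edgeR adjusted p of Hgf was 0.103. Vegfa (-0.06, SE 0.07), Met (-0.04, SE 0.05) and Angptl4 (-0.14, SE 0.09) were not called. G1 cells also held more Myog, which was at 505 CPM there and 131 CPM in cycling cells. Of 4 tested other ligands of the VEGF and angiopoietin families 3 were lower in cycling cells, Angpt4 (-0.95, SE 0.25), Angptl2 (-0.31, SE 0.07) and Angptl6 (-0.28, SE 0.10). The Angptl6 call was lost without young replicate 1 or any old replicate (edgeR adjusted p = 0.0709 to 0.110) and without the filter on low counts, and the Angpt4 value was -0.62 without old replicate 2.

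Genes of the other cell type lists moved with the cycle too. Of 6 pericyte and smooth muscle markers Cspg4 (0.36) and Myh11 (1.03) were higher and Rgs5 (-1.30), Abcc9 (-2.24) and Notch3 (-0.48) lower in cycling cells. Egfl7 was higher (0.39), 1 of 3 endothelial markers, as was Ngfr (0.46), 1 of 4 Schwann markers. Cd79a was lower (-0.95), 1 of 3 immune markers, as was Gsn (-0.46), 1 of 6 fibro-adipogenic markers. The calls of Cspg4, Egfl7, Notch3, Cd79a and Myh11 were each lost without any 1 of 2 to 5 samples (edgeR adjusted p = 0.0558 to 0.1169). Under DESeq2 Myh11 and Ngfr were not called, with thinned counts Egfl7 was not (edgeR adjusted p = 0.0617), with RLE size factors Cspg4 was not, and without the filter on low counts Notch3 was not. The part of these markers in the members' differences was not tested.

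The third question was what else the cells with a detected transcript hold. At 5000 UMIs an even spread of the mean level over cells would give detection in 10.1% to 23.6% of cells for Vegfa. The observed range was 9.77% to 22.2%. For Met the even spread gives 13.4% to 57.2% against 13.0% to 52.9% observed, and for Angptl4 6.80% to 14.2% against 6.50% to 13.7%. Detection was below the even spread in every sample for these genes. An even spread gives a variance over the mean of 1 for the UMIs per cell. The values were 1.07 to 1.18 for Vegfa, 1.05 to 1.25 for Met and 1.02 to 1.19 for Angptl4. At low levels the share detected changes little with an uneven spread. Whether cells with a detected transcript are a subset apart was thus not settled by these shares. Vegfa-positive cells at 5000 UMIs were compared with the other cells of their sample over 13539 genes, of which 9.80% were higher and 20.3% lower. Among the other 8 members, Vegfc (0.12, SE 0.04) and Met (0.11, SE 0.03) were higher, each in 4 of 6 samples, and Vegfb (-0.10, SE 0.02) and Angptl4 (-0.11, SE 0.04) were lower, in 6 and 5 of 6 samples (edgeR adjusted p = 0.0166, 0.0298, 0.00115 and 0.0412). The Angptl4 call was lost under DESeq2 and without any sample but old replicate 3 (edgeR adjusted p = 0.0543 to 0.253). The Vegfc call was lost without old replicate 2 or 3 (0.0521 to 0.0952), and that of Met without young replicate 2 or old replicate 1 or 3 (0.0726 to 0.0912). With thinned counts the calls of Vegfb (edgeR adjusted p = 0.0668) and Angptl4 (0.312) were lost. Angptl4 was not called with RLE size factors either, nor were Vegfc and Met when no filter on low counts was used.

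ATF4 is the transcription factor of the amino acid and unfolded protein responses, and Vegfa is among its known targets. Of 11 ATF4 targets 6 were higher and 2 lower in the Vegfa-positive cells, with a median log2 fold change of 0.22 against -0.01 over all genes. The higher genes were Trib3, a pseudokinase (0.37, SE 0.08, 5.06 against 3.88 CPM), the mTORC1 inhibitor Ddit4 (0.31, SE 0.04), the cystine transporter Slc7a11 (0.24, SE 0.03), the glutathione-degrading Chac1 (0.23, SE 0.07), Sesn2 (0.17, SE 0.05) and Ddit3, encoding CHOP (0.15, SE 0.05). Vegfa-positive cells also held less Myog (-0.93, SE 0.20), a call lost without young replicate 1 or 3 or old replicate 1 or 3 (edgeR adjusted p = 0.0507 to 0.0585). Among cells without Myog UMIs at 5000 UMIs the Myog value was -0.34. The 2 lower ATF4 targets were the biosynthetic enzymes Phgdh (-0.15, SE 0.02) and Asns (-0.13, SE 0.03). Trib3, Ddit4 and Slc7a11 were higher in 6 of 6 samples, while the call of Chac1 was lost without young replicate 3 (edgeR adjusted p = 0.0538) and that of Ddit3 without young replicate 1 or old replicate 2 or 3 (0.0639 to 0.0811). With thinned counts Ddit3 (edgeR adjusted p = 0.0885) and Sesn2 (0.187) were not called.

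Of 20 hypoxia targets 7 were lower, 2 higher and 11 not called, with a median of -0.06. The glycolytic genes Tpi1 (-0.18, SE 0.02), Aldoa (-0.20, SE 0.03), Ldha (-0.15, SE 0.02) and Pgk1 (-0.10, SE 0.02) were lower in 6 of 6 samples. Ndrg1 (0.25, SE 0.05) and P4ha1 (0.08, SE 0.03) were higher, as was Hif1a itself (0.06, SE 0.02). The P4ha1 call was lost without any sample but young replicate 2 (edgeR adjusted p = 0.0500 to 0.0873), and that of Hif1a without young replicate 2 or old replicate 2 (0.0519 to 0.0825). With thinned counts neither P4ha1 (edgeR adjusted p = 0.0555) nor Hif1a (0.0988) was called. Neither was called without the filter on low counts. Among called genes with a mean log2 CPM above 5 and 1 direction in every sample, the most raised were Ano3, Samd12, Magi2, Adamts6, Prkg1, Prrg4, Pde4d and Eya1, by 0.22 to 0.31. The most lowered were the muscle genes Actc1 (-1.34), Myl4 (-1.19), Acta1 (-1.13) and Myh3 (-1.08), of which only Myh3 was still called among cells without Myog UMIs. The Myh3 value was -0.62 there and -1.65 under DESeq2. The calls of Actc1 and Acta1 were each lost without any 1 of 4 samples, that of Myh3 without young replicate 2 or old replicate 3 (edgeR adjusted p = 0.0621 to 0.0627), and that of Pde4d without old replicate 3 (0.0588).

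Gene length went with these differences. The genes higher in Vegfa-positive cells had a median length in the genome of 93.5 kb, those lower 10.5 kb and all tested genes 25.4 kb, and for Met-positive cells the values were 84.8, 10.3 and 25.5 kb. Its part in the results was not tested. The treatment of intronic reads is not given in the sources used here. Among genes higher in Vegfa-positive cells, Vegfc (109 kb), Met (110 kb), Slc7a11 (551 kb) and Magi2 (1478 kb) are long. The most raised genes named there ran from 19.1 kb (Prrg4) to 1504 kb (Pde4d), and those named below for Met-positive cells from 209 kb (Adamts6) to 1504 kb. Trib3 (6.61 kb), Chac1 (3.15 kb), Ddit3 (5.51 kb) and Ddit4 (2.17 kb), also higher in Vegfa-positive cells, are short. The members lower there, Vegfb (5.18 kb) and Angptl4 (8.08 kb), are short too. When only cells without Myog UMIs were used, Vegfc, Met, Vegfb, Angptl4 and the 8 ATF4 targets named kept their direction and call.

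Met-positive cells were compared in the same way over 13721 genes, of which 15.4% were higher and 20.7% lower. Here 4 of 8 members were higher and 1 lower. Hgf, the ligand of MET, rose most, by 0.54 on the log2 scale (SE 0.13, edgeR adjusted p = 0.00376), from 1.05 to 1.56 CPM. It was higher in 6 of 6 samples, with 1.49, 2.86 and 0.194 CPM in the Met-positive and 0.848, 2.44 and 0.186 CPM in the other cells of the young samples. In the old samples the Hgf levels were 2.54, 1.19 and 1.10 CPM against 1.22, 0.840 and 0.763 CPM. Hgf is a gene of 66.7 kb, and its call was lost when thinned counts were used (0.29, edgeR adjusted p = 0.326). Cells with UMIs of both Hgf and Met at 5000 UMIs were few, 2 to 65 per sample. Their shares in young replicates 1 to 3 were 0.0947%, 0.611% and 0.0188%, where independence gives 0.0647%, 0.602% and 0.0427%. In the old replicates they were 0.313%, 0.153% and 0.140%, against 0.167%, 0.153% and 0.130%. Observed co-detection was thus above the independent share in 4 samples, equal to it in old replicate 2 and below it in young replicate 3, where 15.4% of cells with Hgf and 34.9% of the others held Met. No test of this overlap was made.

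Vegfa (0.15, SE 0.04), Vegfc (0.14, SE 0.04) and Angpt1 (0.20, SE 0.06) were also higher in Met-positive cells, and Vegfb (-0.08, SE 0.02) was lower (edgeR adjusted p = 0.00794, 0.0292, 0.0296 and 0.00701). The Angpt1 call was lost without young replicate 1 or 2 or old replicate 1 or 2 (edgeR adjusted p = 0.0503 to 0.0864), and that of Vegfc without young replicate 3 or old replicate 1 or 2 (0.0504 to 0.120). With thinned counts none of Vegfb (-0.03, edgeR adjusted p = 0.442), Vegfc (0.0886) and Angpt1 (0.0583) was called, which with Hgf leaves Vegfa as the 1 member called under that setting. The Vegfa value was 0.22 there. Without old replicate 3 the Vegfc value was 0.09 and that of Angpt1 0.13. When no filter on low counts was used, Vegfc and Angpt1 were not called either. Of 9 tested partners of HGF and MET 3 were higher (33.3%, against 15.4% of all genes) and 0 lower. In Vegfa-positive cells 3 of 9 tested were also higher (33.3%, against 9.80% of all genes) and 1 lower. The 3 in Met-positive cells were Gab1, the docking protein that MET phosphorylates (0.26, SE 0.04), Plau, encoding the urokinase that can cleave pro-HGF (0.23, SE 0.05), and Cbl, which marks MET for degradation (0.17, SE 0.03). Nrp1 (0.18, SE 0.04) and Tek (0.41, SE 0.07) were higher as well, and the Tek call was lost under DESeq2 and without young replicate 2 (0.11, edgeR adjusted p = 0.817).

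Of 11 ATF4 targets 6 were lower and 2 higher in Met-positive cells. Trib3 (-0.32, SE 0.09), Chac1 (-0.31, SE 0.04) and Ddit3 (-0.22, SE 0.07), all higher in Vegfa-positive cells, were lower in Met-positive cells, and Slc7a11 (0.19, SE 0.03) and Ddit4 (0.10, SE 0.03) were higher in both. The Trib3 call was lost without young replicate 2 (edgeR adjusted p = 0.0526), and those of Ddit3 and Ddit4 each without any 1 of 4 samples (0.0661 to 0.150 and 0.0644 to 0.119). With thinned counts Trib3 (edgeR adjusted p = 0.223) and Ddit4 (0.816) were not called, and Ddit4 was not called under DESeq2 or in cells without Myog UMIs either. Without the filter on low counts neither Ddit3 nor Ddit4 was called. The difference between the 2 comparisons was not tested, and they use the same cells. Of 20 hypoxia targets 9 were lower and 2 higher, with Aldoa (-0.24, SE 0.03) lowest. Among called genes with a mean log2 CPM above 5 and 1 direction in every sample, Robo1, Edil3, Maml3, Slc9a9, Pde4d, Ext1, Gpc6 and Adamts6 were the most raised, by 0.28 to 0.33. The Slc9a9 call was lost without young replicate 2 (edgeR adjusted p = 0.0645) and with thinned counts (0.0722). The most lowered were Actc1 (-2.40), Tnnc2 (-2.32), Myh3 (-2.27) and Myl4 (-2.23). Among cells without Myog UMIs these were -0.93, -1.27, -1.18 and -0.98. The stem cell gene Pax7 was higher (0.39, SE 0.07) and Myog lower (-1.30, SE 0.19) in Met-positive cells. The Myog value was -0.31 among cells without Myog UMIs at 5000 UMIs, the Nrp1 value 0.10 and the Aldoa value -0.16.

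Genes of the other cell type lists also moved in Met-positive cells. Of 6 tested fibro-adipogenic markers Smoc2 (0.23, SE 0.05) and Col3a1 (0.15, SE 0.05) were higher and Gsn (-0.13, SE 0.03) was lower. Of 6 tested pericyte and smooth muscle markers Notch3 was higher (0.31, SE 0.05) and Abcc9 lower (-0.95, SE 0.22), of 4 Schwann markers Ngfr was higher (0.27, SE 0.10), and of 4 endothelial markers Tek was higher and Egfl7 lower (-0.22, SE 0.07). None of 3 immune markers was called. The Col3a1 call was lost without young replicate 2 or any old replicate (edgeR adjusted p = 0.0632 to 0.114), that of Abcc9 without old replicate 3 (0.213), that of Ngfr without any 1 of 4 samples (0.0556 to 0.191) and that of Egfl7 without any sample but young replicate 2 (0.0506 to 0.0752). With thinned counts neither Ngfr (edgeR adjusted p = 0.168) nor Egfl7 (0.522) was called. Under DESeq2 those 2 were not called either, Ngfr was not called without the filter on low counts, Col3a1 was not called with RLE size factors, and among cells without Myog UMIs neither Col3a1 nor Ngfr was called. In Vegfa-positive cells 1 of 6 fibro-adipogenic markers, Gsn, was lower (-0.11, SE 0.02). Of 3 endothelial markers Tek was higher there (0.61, SE 0.07) and of 3 immune markers Csf1r (0.57, SE 0.19), and without young replicate 2 these values were 0.38 and -0.12, neither called. The Csf1r call was also lost without young replicate 1 or 3 or old replicate 2, and that of Tek under DESeq2. The part of these markers in the members' differences was not tested.

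Of the 3 comparisons by a detected member, that of Angptl4-positive cells had the fewest genes called, with 1.87% of 13375 genes higher and 3.60% lower. Pgf was the 1 member called of 8, higher by 0.20 (SE 0.04, edgeR adjusted p = 0.00764), at 36.0 against 31.5 CPM and in 6 of 6 samples. That call was lost without young replicate 1 (edgeR adjusted p = 0.0548). With thinned counts the edgeR adjusted p of Pgf was 0.144. Angptl4 is induced by fatty acids through PPARs, and 2 of 8 tested PPAR genes were higher, Plin2, encoding a lipid droplet coat protein (0.23, SE 0.03, 314 against 268 CPM), and Acaa2, an enzyme of fatty acid oxidation (0.13, SE 0.03). Of 19 tested hypoxia targets 0 were called. The Acaa2 call was lost without young replicate 1 (edgeR adjusted p = 0.0531). With thinned counts its edgeR adjusted p was 0.0790. It was not called without the filter on low counts either.

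Among called genes with a mean log2 CPM above 5 and 1 direction in every sample, the most raised in Angptl4-positive cells were Ltc4s, Errfi1, Ecm1, Plin2, Ccn4, Nptx1, Fkbp11 and Ctsh, by 0.22 to 0.30. The most lowered were the muscle genes Myh3 (-1.99), Tnnc2 (-1.91), Actc1 (-1.89) and Acta1 (-1.87). Among cells without Myog UMIs these were -1.33, -1.12, -0.64 and -1.04. The Actc1 call was lost without old replicate 2 or 3 (edgeR adjusted p = 0.0611 to 0.0656), and that of Acta1 among cells without Myog UMIs. Myog itself was lower (-1.26), a call lost without any sample but old replicate 1 (0.0571 to 0.0744) and among cells without Myog UMIs. Of 6 tested fibro-adipogenic markers, Col3a1 (0.18), Gsn (0.12) and Ly6a (0.34) were higher. Of 5 pericyte and smooth muscle markers Myh11 was higher (1.48, SE 0.31), a call lost without old replicate 1 (0.65, edgeR adjusted p = 0.424). No marker of the endothelial, immune or Schwann lists was called. The part of these markers in the Pgf difference was not tested. The calls of Gsn and Ly6a were each lost without any sample but young replicates 2 and 3 (edgeR adjusted p = 0.0521 to 0.145 and 0.0695 to 0.162), and that of Ecm1 without young replicate 1 or 3 or old replicate 2 (0.0795 to 0.140) and with thinned counts (0.117). Without the filter on low counts Gsn was not called, and among cells without Myog UMIs Ltc4s was not. Genes higher in these cells were short, with a median of 10.9 kb against 49.7 kb for those lower. For Hgf-positive cells no fit was made, because only 3 samples had 50 or more such cells.

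**Figure D5:**
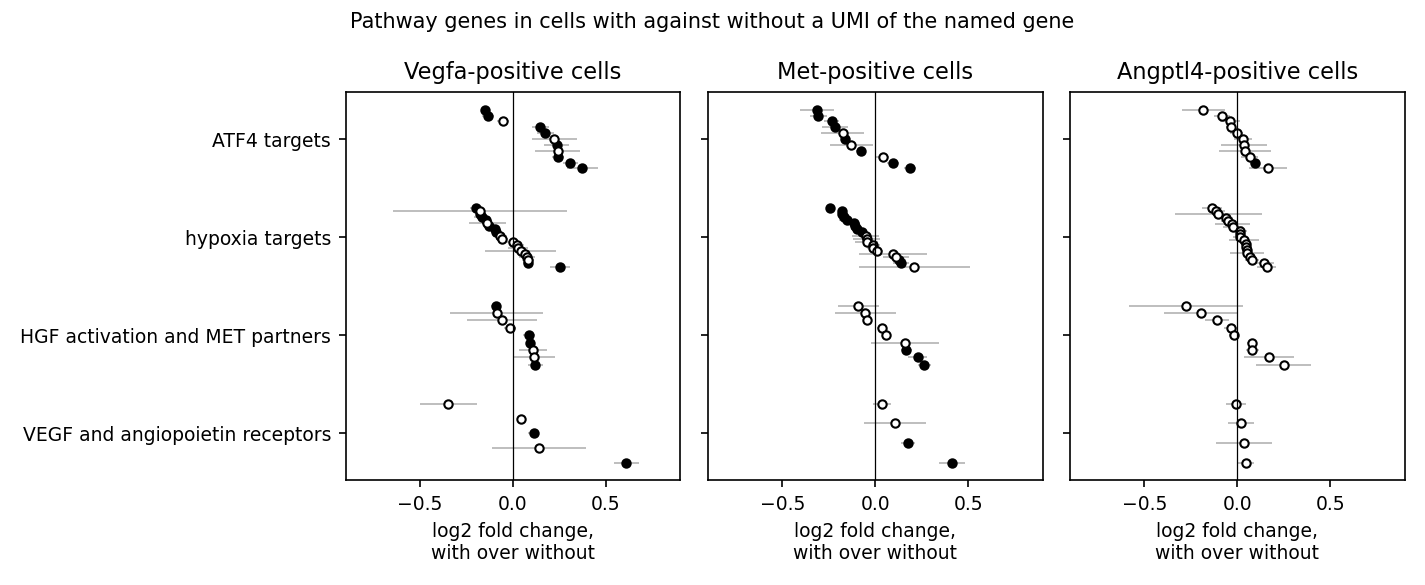
Log2 fold change with SE of pathway genes in Vegfa-positive, Met-positive and Angptl4-positive cells against the other cells of the same sample. Filled points have an edgeR adjusted p under 0.05 and each point is 1 gene. ATF4 targets have 6 filled points to the right of 0 and 2 to the left for Vegfa. For Met 2 lie to the right and 6 to the left, and for Angptl4 only 1 point is filled.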

How the data were processed

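The authors deposited raw UMI counts per gene and barcode for 6 libraries of the 10x Genomics 3′ kit, with no normalization. Per the file headers, Cell Ranger 7.0.0 made the matrices of young replicate 1 and old replicate 1, which list 21849 features, and 7.2.0 made the other 4, which list 32285. The submitters' processing notes name Cell Ranger 7.2.0, Seurat 5.134 and mm10. Genes shared by both lists (21485) were used, which held 98.5% to 99.9% of UMIs. The treatment of intronic reads is not given in the sources used here.

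Barcodes with at least 1000 UMIs, at least 500 genes and under 15% mitochondrial UMIs were retained. No doublet caller was run, and an alternative left out the deepest cells, up to 0.8% per 1000 barcodes. Counts were summed per sample, with a term for the gene list, and tested with edgeR 4.0.16 (R 4.3.3; quasi-likelihood F test with robust dispersions after TMM and filterByExpr, two-sided and adjusted over all genes at 0.05). DESeq2 1.42.0 was an alternative. Cell classes were set after thinning to 5000 UMIs, and full counts of each class were summed and tested with the sample as a block. The old against young p-values measure the spread between these populations. Those of the cell classes measure how far the difference within a sample varied between samples. SE is the absolute log2 fold change over the square root of F. Cell cycle phases came from scanpy 1.11.5 on thinned cells with 42 S and 52 G2/M genes. Both fits were tested on simulated data. Coordinates are GENCODE's for GRCm38, matched by Ensembl identifier, and sequences are RefSeq's.

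Members, gene lists and tests were chosen with earlier results of these data known. For each list, counts are given over all tested genes, and the named genes are up to 4 by highest level and up to 6 past the threshold by fold change. For cell classes, up to 8 higher and 4 lower genes are named by fold change among called genes with a mean log2 CPM above 5 and the same direction in every sample. Marker lists covered myogenic, endothelial, fibro-adipogenic, pericyte and smooth muscle, immune and Schwann cells. The pericyte and Schwann lists summed to 13.3 to 92.7 and 0.945 to 22.5 CPM per sample, each highest in young replicate 2.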

Additional observations from a re-analysis of the deposited data

How the results depend on the processing

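Between old and young, 1 gene was called higher and 0 lower. DESeq2 called 180 and 39, the fits without the gene list term and on the longer list alone called 0 higher, and leaving out single samples gave 0 to 3 higher. The fits without young or old replicate 1 rest in effect on the same samples as the longer list alone. The replicate block gave 1 higher and 0 lower and turned the estimates of Angpt1 (0.10), Hgf (0.46) and Cbl (0.025). Same-numbered samples had correlated deviations of 0.396, 0.281 and -0.108, and young replicate 2 correlated best with old replicate 3, so the numbers are not shown to pair the samples. Other log2 estimates that changed sign were Vegfc in G1 cells (-0.077), Sdc1 on the longer list alone (-0.022), and Cbl without the gene list term (0.012) or in cells without Myog UMIs (0.038). None of these was called, and the cause was not tested.
Leaving out single samples moved the old over young log2 estimate across 0 for Vegfc (-0.17 to 1.11), Pgf (-2.05 to 0.62), Angpt1 (-0.64 to 0.87), Angpt2 (-0.54 to 0.35), Hgf (-0.69 to 1.53), Nrp1 (-0.41 to 0.26), Tek (-6.62 to 1.47), Thbs1 (-0.70 to 1.05), Pdgfa (-0.0070 to 0.41), Serpinf1 (-2.76 to 1.15), Cd44 (-0.79 to 0.33), Grb2 (-0.24 to 0.60), Sdc1 (-0.022 to 0.27) and Cbl (-0.17 to 0.26).
Without the replicate block, that is without the sample term, 158 genes were higher and 3 lower in cells with Myog, 628 and 32 in cycling cells, and 0 and 0 in Vegfa-, Met- and Angptl4-positive cells. Leaving out single samples gave 1439 to 2151 higher and 1886 to 2916 lower in cells with Myog, where the count of lower genes moved by over 1.5 times only without old replicate 3. In Vegfa-positive cells 733 genes were higher with no low-count filter and 716 with thinned counts, against 1327. In Angptl4-positive cells, against 250 higher and 482 lower, DESeq2 gave 419 and 203, RLE size factors 432 higher, no filter 106 and 1000, thinned counts 141 and 272, and leaving out single samples 96 to 226 and 237 to 480. Reversed values, none called under the alternative, were Tek in cells with Myog (0.14, DESeq2), Angpt1 in Vegfa-positive cells (-0.033, thinned counts), and in Angptl4-positive cells Vegfb (0.0091 under DESeq2 and under RLE), Angpt2 (-0.0090, thinned counts) and, among cells without Myog UMIs, Vegfc (-0.019), Angpt1 (-0.0083) and Met (-0.014). Leaving out single samples moved across 0 Tek in cells with Myog (-1.08 to 0.81), Angpt1 in cycling cells (-0.24 to 0.0019), Csf1r in Vegfa-positive cells (-0.12 to 0.68), Vegfa in Angptl4-positive cells (-0.037 to 0.0029), Vegfb in Angptl4-positive cells (-0.037 to 0.011) and Hgf in Angptl4-positive cells (-0.0091 to 0.41).
The old minus young difference in the share of cells, in percentage points, changed sign for Angpt2 in cells without Myog UMIs (0.0294) and for Hgf without thinning (-0.177), at 10000 UMIs (-0.0250) and on the longer list alone (-0.133). Leaving out single samples did so for Vegfc (-1.96 to 6.36), Angpt1 (-4.69 to 3.72), Angpt2 (-0.498 to 0.779), Hgf (-0.200 to 0.307) and Met (-18.4 to 1.53). Hgf rests on 38 to 510 UMIs per sample.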
